A study of Mus musculus with 4 samples.

Results

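The cells described here are Trdc+ T cells of the mouse lung, selected from single-cell RNA sequencing of sorted immune cells. A cell was taken when it had 200 or more detected genes, at most 10% of its UMIs from mitochondrial genes, at least 1 UMI of Trdc, at least 2 UMIs of Cd3d, Cd3e and Cd3g together, and no UMI of Cd4, Cd8b1, Ncr1, Rag1, Dntt or Cd79a. A UMI is a molecular barcode that counts 1 captured RNA molecule. The rule found 80 cells among 15181 kept cells, from 16528 cell barcodes in all. They are called Trdc+ cells below, because the rule used measured UMIs and some of its members may not carry a γδ receptor, as the receptor genes show.

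The study sorted live CD45.2+ cells from lungs of 2 mice per genotype and sequenced 4 libraries with the Chromium 3′ chemistry. The 2 knockout libraries came from Lmna-flox/flox Vav1-cre+/- mice, in which the recombinase is made in blood-forming cells and their descendants, so that Lmna loss was not limited to T cells. The 2 WT libraries came from Lmna-flox/flox Vav1-cre-/- mice, which carried the same floxed alleles without the recombinase. All mice were C57BL/6J and 10 weeks old, and no treatment is given in the labels. The knockout libraries held 21 and 25 Trdc+ cells, against 19 and 15 in the WT libraries.

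γδ T cells carry a T cell receptor made of a γ and a δ chain in place of the α and β chains of CD4 and CD8 T cells. In mice they are known to leave the thymus as lineages already committed to a cytokine: a type 17 lineage, marked by Sox13, Maf and Il23r, that makes interleukin 17 at barrier tissues, and a type 1 lineage, marked by Tbx21, Eomes and cytotoxic genes, that makes interferon γ. The lung holds both, and the type 17 cells are known as an early source of interleukin 17 there.

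Tcrg-C1, Tcrg-C2 and Tcrg-C4 carried nearly all γ-chain counts in these data, and the start of the first exon of each γ constant gene is shown because those counts were the main check of the label. The bases are from the GRCm38 genome in the direction of transcription, and capitals mark positions at which the genes differ among the set.
Tcrg-C1: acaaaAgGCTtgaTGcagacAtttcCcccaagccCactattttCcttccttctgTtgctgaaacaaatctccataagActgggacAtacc
Tcrg-C2: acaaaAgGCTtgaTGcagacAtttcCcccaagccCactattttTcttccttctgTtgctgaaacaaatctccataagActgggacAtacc
Tcrg-C4: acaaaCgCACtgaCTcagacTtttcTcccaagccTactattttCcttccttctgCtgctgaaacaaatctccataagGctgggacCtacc
The windows lie at chr13:19214103-19214192 on the plus strand for Tcrg-C1, chr13:19307462-19307551 on the minus strand for Tcrg-C2, and chr13:19344558-19344647 on the plus strand for Tcrg-C4. Over the 330 bases of exon 1, Tcrg-C2 matched Tcrg-C1 at 97.3% of positions and Tcrg-C4 matched it at 82.1%. In the last 400 bases of the transcripts, where 3′ reads fall, 23.4% of the 50-base windows of Tcrg-C1 also occurred in Tcrg-C2, and none occurred in Tcrg-C4. Counts of Tcrg-C1 and Tcrg-C2 are therefore partly uncertain as single genes wherever they are given singly below, and γ-chain cells are counted from the sum of the Tcrg-C genes.

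Among the 80 Trdc+ cells, 57 had at least 1 UMI of a Tcrg-C gene, a γ-chain transcript the rule had not used, and 23 had none. The γ-chain cells numbered 18 of 21 and 17 of 25 in the knockout libraries, against 12 of 19 and 10 of 15 in the WT libraries. Their share averaged 76.9% ± 12.5 in knockout libraries and 64.9% ± 2.48 in WT libraries (SD, n = 2 each), with an exact two-sided permutation p of 0.333, the smallest that 2 libraries against 2 allow. Tcrg-C1, Tcrg-C2 and Tcrg-C4 were detected in 52.5%, 56.2% and 51.2% of the Trdc+ cells, against 0.345%, 0.747% and 0.460% of CD8 T cells. Tcrg-C3 had no UMI in any of the 80 cells.

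The 2 kinds of member differed in the δ constant gene as well. Trdc lies on chromosome 14 at chr14:54142851-54148868, close to Trac, which encodes the α-chain constant region. The γ-chain cells had a median of 9 Trdc UMIs and a median of 0 Trac UMIs, and 17 of the 57 had any Trac. The 23 cells without a γ-chain UMI had a median of 1 Trdc UMI and a median of 3 Trac UMIs, and 19 of them had Trac. Over all members Trdc ran from 1 to 53 UMIs with a median of 6: 21 cells had exactly 1 UMI, 17 had 2 to 5 and 42 had 6 or more. The data thus went with the label for most members and against it for a part, mostly cells with 1 Trdc UMI. Of the 59 members with 2 or more Trdc UMIs, 7 had no γ-chain UMI, and 3 of those 7 had Trac.

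**Figure D1:**
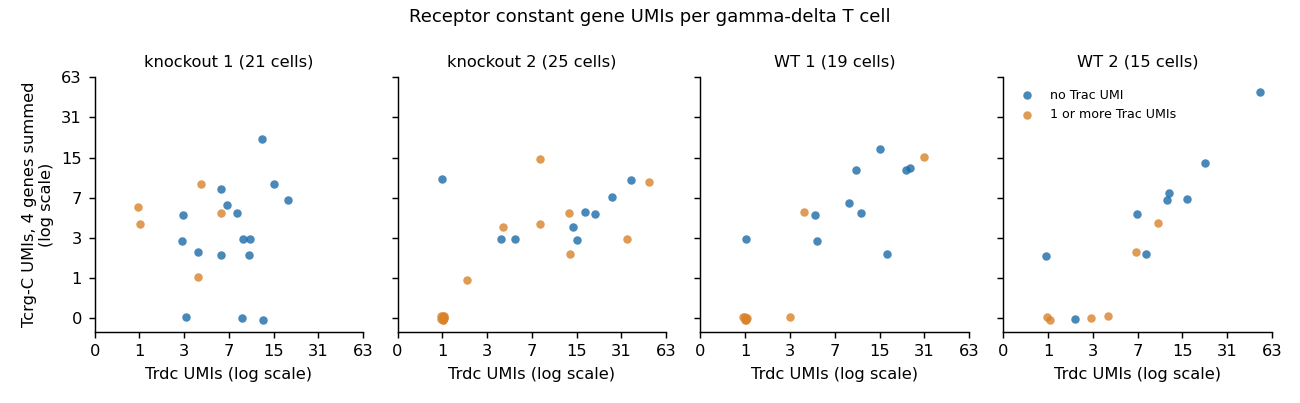
Each point is 1 of the 80 Trdc+ cells, with Trdc UMIs on the horizontal axis and the summed UMIs of 4 Tcrg-C genes on the vertical axis, both on a log scale and slightly jittered, in 1 panel per library. Blue points had no Trac UMI and orange points had at least 1; of the 36 orange points, 19 lie at 0 on the vertical axis, and 16 members had 1 Trdc UMI and no γ-chain UMI.

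Trdc counts were also measured in cells the rule had left out. Among T cells with a Cd8b1 UMI and no Cd4 UMI, 74 of 1814 (4.08%, exact 95% interval 3.22 to 5.09) held Trdc. Of those 74, 46 had exactly 1 Trdc UMI, 8 had 6 or more and 9 had a γ-chain UMI. Among T cells with Cd4, 47 of 1299 (3.62%, 2.67 to 4.78) held Trdc. Of those 47, 34 had exactly 1 Trdc UMI, 3 had 6 or more and 2 had a γ-chain UMI. B cells held Trdc in 6 of 3665 cells (0.164%). T cells without Cd4 and Cd8b1, the pool the rule draws on, held it in 80 of 940 (8.51%, 6.81 to 10.5), and 57 of those 80 had a γ-chain UMI. Median depth was 5632.5, 5016, 3779 and 4694.5 UMIs per cell in the same order. NK cells with Ncr1, which the rule left out, held Trdc in 343 of 930 cells (36.9%) at a median depth of 4433.5 UMIs, and 11 of the 930 had a γ-chain UMI. T cells that carried Cd4 or Cd8b1 thus held Trdc in 3.62% to 4.08% of cells. Whether any of those Trdc-holding cells carried a γδ receptor was not tested. Just outside the rule, 3 cells had Trdc and a CD3 sum of 1, while 2 members had a CD3 sum of 2, and 85 T cells without a Trdc UMI had a γ-chain UMI, 72 of them together with Trac.

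Variable segments were seen in few cells, since 3′ reads seldom reach them. Tcrg-V1 was detected in 9 Trdc+ cells, 2 and 2 in the knockout libraries and 1 and 4 in the WT libraries. Tcrg-V4 was detected in 4 cells and Tcrg-V6, the segment of a lung and skin type 17 lineage, in 1 cell. Trdv4 was detected in 4 cells, all of library WT 1, with 6 UMIs in all. Trdv4 UMIs also occurred in 3.98% of NK cells, so this segment alone does not mark a γδ cell.

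The Trdc+ cells held 103136 and 124362 UMIs in the knockout libraries, against 151710 and 101399 in the WT libraries, and 1 UMI in those sums was worth 9.70, 8.04, 6.59 and 9.86 CPM. CPM are UMIs of a gene divided by all UMIs of the sum and scaled to a common total. The median member had 4294 and 4702 UMIs in the knockout libraries and 6488 and 4416 in the WT libraries. Members over 11000 UMIs numbered 0 and 0 in the knockout libraries, against 4 and 1 in the WT libraries, and a single WT 2 cell of 29875 UMIs made up 29.5% of that library's member UMIs. A doublet score marked 1 member, in WT 2, and none of the 27 barcodes shared between libraries belonged to a member. WT 2 also stood apart in holding 571 cells with Rag1 or Dntt, against 29 to 55 in the other libraries; cells with either gene were outside the rule.

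The largest members were of different kinds. The WT 2 cell of 29875 UMIs had 53 Trdc UMIs, 50 γ-chain UMIs and all 20 listed cell cycle genes, and a WT 1 cell of 17962 UMIs had 30 Trdc UMIs, 15 γ-chain UMIs and 15 cell cycle genes. A pair of other WT 1 cells, of 14964 and 19643 UMIs, held 260 and 191 UMIs of Lyz2, a macrophage and neutrophil lysozyme, beside 1 and 10 Trdc UMIs.

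Myeloid transcripts in the Trdc+ sums came from few cells. The summed level of 10 myeloid markers was 301 and 338 CPM in knockout Trdc+ cells, against 3876 and 1164 CPM in WT Trdc+ cells, with no marker at 0, and 2 cells held 544 of the 588 UMIs in WT 1 and 108 of 118 in WT 2. The 6 neutrophil markers summed to 29.1 and 72.4 CPM in knockout Trdc+ cells and to 4654 and 98.6 CPM in WT Trdc+ cells. Of 7 NK markers outside the rule, Klra4, Klra8 and Klri2, receptors of NK cells, had no UMI in any member. The 7 markers summed to 145 and 957 CPM in knockout Trdc+ cells and to 1364 and 483 CPM in WT Trdc+ cells, and 1 cell held 112 of the 119 UMIs in knockout 2 and 1 cell held 204 of the 207 in WT 1. In CD8 T cells they summed to 628, 122, 147 and 181 CPM.

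Markers of other T cells were present in part. Of 5 thymocyte markers, Rag2 and Ptcra had no UMI in any member, and Arpp21 was detected in 4 members. The list summed to 175 and 225 CPM in knockout Trdc+ cells, 244 and 217 CPM in WT Trdc+ cells and 262 to 312 CPM in CD8 T cells. Of 4 regulatory T cell markers (Foxp3, Il2ra, Ctla4 and Ikzf2), Foxp3 was at 0. The list summed to 504 and 402 CPM in knockout Trdc+ cells, 521 and 572 CPM in WT Trdc+ cells and 73.7 to 120 CPM in CD8 T cells. Most of that sum was Ikzf2, at 465 and 354 CPM in knockout and 468 and 552 CPM in WT Trdc+ cells. Il2ra was also higher than in CD8 T cells. Ctla4 was lower, at 19.4, 16.1, 13.2 and 9.86 CPM against 43.2, 63.7, 42.9 and 26.2 CPM. The part of these lists in the comparisons was not tested.

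Detected genes separated the Trdc+ cells into a type 1 and a type 17 side. For each cell the number of detected genes out of 15 type 17 genes was set against the number out of 15 type 1 genes; a lead of 2 or more placed the cell on a side. By that count 48 of 80 cells (60%, exact 95% interval 48.4 to 70.8) lay on the type 1 side, 10 (12.5%, 6.16 to 21.8) on the type 17 side and 22 on neither. All 10 type 17 side cells had a γ-chain UMI, as did 43 of the 48 type 1 side cells. Among cells on neither side, 18 had no γ-chain UMI and 17 of those had Trac. The sides are ranges of a count, not types, and 16 cells had a difference of 1 to 3 genes, near the margin.

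**Figure D2:**
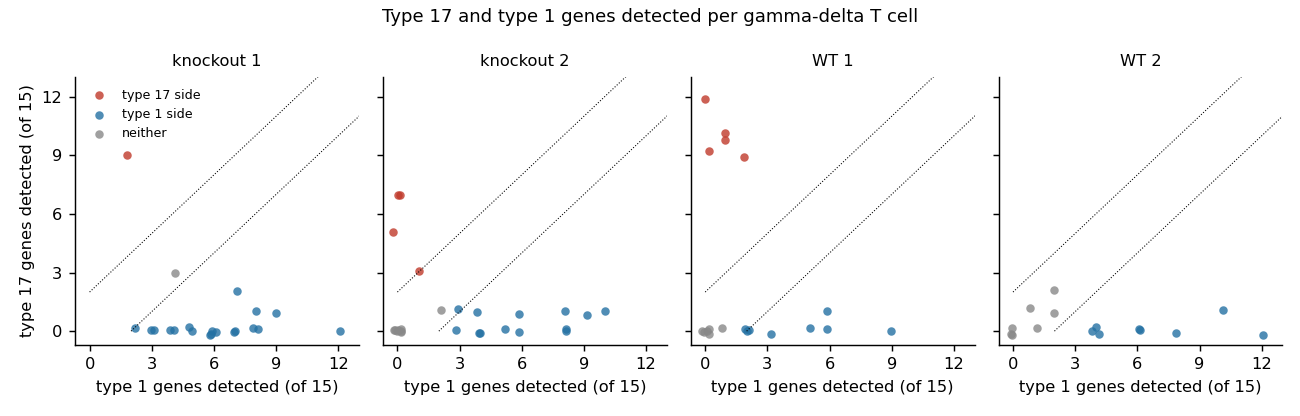
Each point is 1 Trdc+ cell, with the number of type 1 genes detected out of 15 on the horizontal axis and of type 17 genes out of 15 on the vertical axis, jittered, in 1 panel per library; dotted lines mark the margin of 2 genes. The 10 type 17 side cells lie along the vertical axis with 3 to 12 type 17 genes and at most 2 type 1 genes, and none lies in the WT 2 panel.

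The type 17 side cells carried the regulators and receptors of the interleukin 17 lineage; the genes that set the sides are given as a description. Sox13, a lineage factor of type 17 γδ cells, was detected in 7 of the 10 type 17 side cells and in 0 of the 48 type 1 side cells. Maf was detected in 8 against 3, and Blk, a kinase of the same lineage, in 7 against 1. Il23r and Il1r1, receptors for interleukins 23 and 1, were detected in 4 and 5 of the type 17 side cells and in no type 1 side cell. Il17a itself was detected in 1 cell, of WT 1, with 1 UMI.

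The type 17 side cells differed by library in their scavenger receptor genes. Cd163l1 had 5, 15, 6, 14 and 4 UMIs in the 5 cells of WT 1, and in the knockout libraries it had 8 UMIs in 1 cell and none in the other 4. 5830411N06Rik, a neighbouring gene of the same family on chromosome 7, had 7 UMIs in the knockout 1 cell, 0, 2, 10 and 1 UMIs in the 4 cells of knockout 2, and 3, 0, 0, 0 and 0 UMIs in the 5 cells of WT 1. Trdv4 was detected in 4 of the 5 WT 1 cells and in no knockout cell, while Trdv5 was detected in 2 of the 4 knockout 2 cells. With 5 cells from 1 WT library and 5 from 2 knockout libraries, genotype and animal cannot be told apart for these genes.

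The type 1 side cells carried cytotoxic and memory genes. Nkg7, a granule membrane protein, was detected in 44 of 48 type 1 side cells and 1 of 10 type 17 side cells. Ccl5, a chemokine, was detected in 41 of 48 against 0 of 10, and Klrd1, the partner of the inhibitory receptor Nkg2a, in 38 against 0. Il2rb, the receptor chain for interleukins 2 and 15, was detected in 37 against 4. The effector genes were rarer: Eomes was detected in 12 of the 48 cells, Ifng in 9, Tbx21 in 8 and Gzma in 5.

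Genes outside both lists also differed in level between the sides, given here without a test, since no pair of sides had 5 cells each in all 4 libraries. Il7r, the receptor of the survival cytokine interleukin 7, was at 1808 CPM in the summed type 17 side cells and at 698 CPM in the type 1 side cells. Cxcr6, a chemokine receptor of tissue-resident lymphocytes, was detected in 9 of 10 type 17 side cells and 9 of 48 type 1 side cells. Zbtb16, a factor of innate-like T cells, was detected in 4 of 10 and 0 of 48. Ccr7, Lef1 and Cd27, from the list of genes of naive and recirculating cells, went the other way. Ccr7 was detected in 0 of 10 and 18 of 48, Lef1 in 2 and 32, and Cd27 in 2 and 38. Ikzf2, which encodes Helios, was detected on both sides, in 7 of 10 and 35 of 48 cells, and in 0 of the 18 cells with neither side and no γ-chain UMI. Those 18 cells had Ccr7 in 16, Lef1 in 15, Nkg7 in 0 and Ccl5 in 0.

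The type 17 side held 4.76% and 16% of the Trdc+ cells in the knockout libraries, against 26.3% and 0% in the WT libraries, where 0 of 15 cells in WT 2 allows a share of up to 20%. The mean was 10.4% ± 7.95 in knockout and 13.2% ± 18.6 in WT libraries (SD, n = 2 each), with an exact two-sided permutation p of 1. The groups overlapped, and the difference of -2.78 percentage points turned to 10.4 points without WT 1 and to 2.84 points without knockout 1. The type 1 side held 90.5% and 52.0% of the Trdc+ cells in the knockout libraries and 42.1% and 53.3% in the WT libraries, with an exact permutation p of 0.667.

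Trdc+ cells were 0.557% and 0.696% of the kept cells in the knockout libraries (exact 95% intervals 0.345 to 0.850 and 0.451 to 1.03), against 0.482% and 0.387% in the WT libraries (0.291 to 0.752 and 0.217 to 0.637). These intervals cover counting error only. Both knockout libraries lay above both WT libraries, yet all 4 intervals overlapped. The mean share was 0.627% ± 0.0983 in knockout and 0.434% ± 0.0675 in WT libraries (SD, n = 2 each), and the exact two-sided permutation p was 0.333, the smallest possible. edgeR's quasi-likelihood test on cell numbers gave a log2 difference of 0.52 ± 0.39 (SE) with a Benjamini-Hochberg adjusted p of 0.636 over 7 cell classes. As a share of cells with CD3, the values were 1.59% and 2.30% in knockout and 1.49% and 1.06% in WT libraries, with a log2 difference of 0.33 and an adjusted p of 0.562.

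Trdc+ cells were then compared with CD8 T cells of the same 4 libraries. The Trdc+ sums held all 80 members, also the 23 without a γ-chain UMI, so the differences do not stand for γδ cells alone. UMIs were summed per library and cell class, and edgeR's quasi-likelihood test with library as a block called 202 of 7912 genes (2.55%) at an adjusted p under 0.05, 70 higher (0.885%) and 132 lower (1.67%) in Trdc+ cells. Higher genes were those of the γ chain, the transcription factors Ikzf2, Sox4, Maf, Gata3 and Rora, interleukin 2 and 18 receptors, and Pdcd1. Lower genes included Trac, and Ccr7, Lef1 and Satb1 from the list of genes of naive and recirculating cells. The genes of the gates are left out of these calls.

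The γ-chain genes had the highest fold changes. Tcrg-C1 was at 262, 233, 349 and 256 CPM in Trdc+ cells of knockout 1, knockout 2, WT 1 and WT 2, against 0.680, 0.958, 0.560 and 1.23 CPM in CD8 T cells, a log2 difference of 8.05 ± 0.34 (SE, adjusted p = 1.61e-18). Tcrg-C2 differed by 7.09 ± 0.30 and Tcrg-C4 by 7.01 ± 0.50. Every Trdc+ sum lay far above every CD8 sum for these genes. Trac went the other way, at 97.0, 346, 138 and 128 CPM in Trdc+ cells against 548, 527, 430 and 485 CPM in CD8 T cells, a log2 difference of -1.77 ± 0.23 (adjusted p = 4.65e-05). With the 57 γ-chain cells alone, the Trac difference was -3.12.

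Of 10 tested transcription factors in the list, 4 were higher and none lower. Ikzf2 was at 465, 354, 468 and 552 CPM in Trdc+ cells and at 55.1, 51.2, 40.6 and 45.8 CPM in CD8 T cells, 8.21-fold higher (log2 3.04 ± 0.19, adjusted p = 1.69e-13). It was detected in 57.5% of Trdc+ cells and 11.8% of CD8 T cells. Sox4 was at 116, 249, 52.7 and 256 CPM against 12.2, 16.3, 16.5 and 28.7 CPM (log2 2.87 ± 0.31). In each library a single cell held much of the Sox4 UMIs of the Trdc+ sum: 50%, 58.1%, 50% and 53.8% in the same order. That cell also held the thymocyte marker Arpp21 in knockout 1, knockout 2 and WT 2, with 1, 1 and 3 UMIs. In WT 1 it had 0 Arpp21 UMIs. The part of immature cells in the Sox4 difference was not tested. Sox4 was detected in 1 of 10 type 17 side cells and 13 of 48 type 1 side cells. Gata3 and Rora had log2 differences of 1.26 ± 0.27 and 1.55 ± 0.33. Their calls depended on single libraries: the adjusted p was 0.124 for Gata3 without WT 2, 0.0621 for Gata3 without knockout 1, and 0.138 for Rora without WT 1.

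Type 17 genes were mostly too low in the sums to be tested, and 2 of the 5 that were tested rose. 5830411N06Rik was at 87.3, 113, 19.8 and 207 CPM in Trdc+ cells against 2.38, 3.83, 1.12 and 1.23 CPM in CD8 T cells, 37.7-fold higher (adjusted p = 3.20e-08). Maf was at 29.1, 137, 92.3 and 0 CPM in Trdc+ cells and at 7.48, 9.58, 4.20 and 6.96 CPM in CD8 T cells (log2 2.94 ± 0.57, adjusted p = 0.0024). The WT 2 sum, which held no type 17 side cell, lay below its CD8 sum for Maf and above it for 5830411N06Rik, and 19 of the 21 UMIs of 5830411N06Rik in WT 2 came from the cell of 29875 UMIs.

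Of 15 tested type 1 genes, 4 rose and none fell. Il2rb was at 582, 265, 224 and 207 CPM in Trdc+ cells and at 111, 97.2, 105 and 86.8 CPM in CD8 T cells (log2 1.37 ± 0.21, adjusted p = 6.21e-05). Xcl1, a chemokine that attracts dendritic cells, differed by 2.78 ± 0.54. Ccl5 was at 6390, 4463, 1088 and 3422 CPM against 2512, 1036, 620 and 1244 CPM (log2 1.23 ± 0.18, adjusted p = 0.00487). The adjusted p of Ccl5 was 0.131 without WT 2 and 0.279 without members over 11000 UMIs. Nkg7 was detected in 60% of Trdc+ cells and in 83.6% of CD8 T cells.

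Receptors for cytokines and checkpoint proteins moved in part. Of 11 tested cytokine receptor genes, 4 rose and none fell: Il18r1 (log2 1.59 ± 0.27), Il18rap (1.43 ± 0.32), Ifngr1 (0.59) and Il2ra (4.10 ± 0.68). Il2ra rested on few UMIs: 2, 4, 6 and 1 in the Trdc+ sums and 4, 1, 6 and 3 in the larger CD8 sums. The call of Il18rap was lost without knockout 1, with an adjusted p of 0.227, and that of Ifngr1 without knockout 1 (0.618) or knockout 2 (0.348). Pdcd1, which encodes the inhibitory receptor PD-1, was at 48.5, 88.5, 65.9 and 49.3 CPM in Trdc+ cells against 4.42, 4.31, 2.24 and 1.23 CPM in CD8 T cells (log2 4.17 ± 0.51, adjusted p = 1.57e-06). Ctla4 fell, by 1.81 on the log2 scale, and that call was lost without knockout 2 (adjusted p = 0.19) and without WT 1 (0.103). Nr4a1 and Rgs2, genes of recent receptor signalling, were 3.07-fold and 2.67-fold higher in Trdc+ cells.

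Of 11 tested genes of naive and recirculating cells, 3 fell and none rose. Ccr7, the receptor for lymph node entry, was at 291, 346, 244 and 286 CPM in Trdc+ cells and at 562, 721, 719 and 668 CPM in CD8 T cells (log2 -1.42 ± 0.17, adjusted p = 7.75e-07). Lef1 was at 398, 450, 290 and 296 CPM against 558, 524, 543 and 579 CPM (log2 -0.85 ± 0.17, adjusted p = 0.0015). Satb1, a chromatin organiser, differed by -0.62, and its call was lost without knockout 1 (adjusted p = 0.199), WT 1 (0.422) or WT 2 (0.106). In the 57 γ-chain cells the differences were -2.48 for Ccr7, where the adjusted p was 0.0773, and -1.25 for Lef1. No list of nuclear envelope genes (14 tested), cell cycle genes (14) or interferon-induced genes (15) had a member past the threshold, and the median log2 difference of all genes tested was -0.02. The genes Chil3 and H2-Ab1, of macrophages and antigen-presenting cells, were lower in Trdc+ cells. The call of Chil3 was lost with DESeq2 (adjusted p = 0.165), without cells scored as doublets (0.112), after thinning (0.0797) and without the library term (0.651), and that of H2-Ab1 after thinning (0.288) and at 5% mitochondrial UMIs (0.219). The summed B cell markers were 494, 434, 699 and 325 CPM in Trdc+ cells and 663, 619, 716 and 1162 CPM in CD8 T cells, and the part of free or foreign RNA in these calls was not tested.

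**Figure D3:**
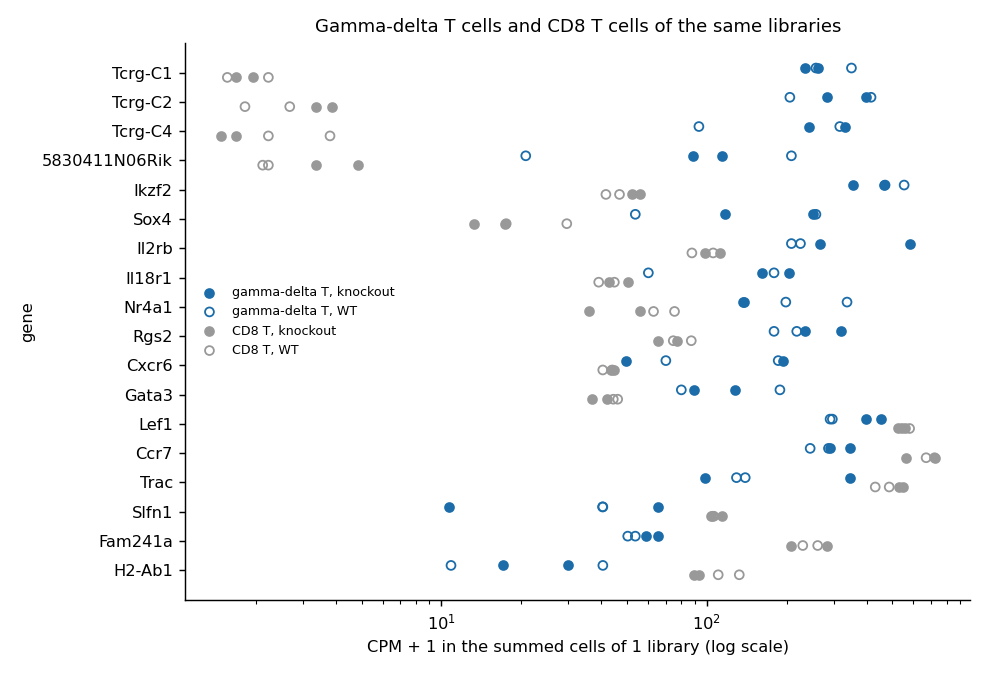
Levels of 18 genes in summed Trdc+ cells (blue, labelled gamma-delta T) and CD8 T cells (grey) of each library, as CPM + 1 on a log axis; filled points are knockout libraries and open points WT libraries. The blue points of Tcrg-C1, Tcrg-C2, Tcrg-C4 and Ikzf2 lie right of all grey points in all 4 libraries, and those of Ccr7, Trac and Fam241a lie left of them.

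Against CD4 T cells the same test called 207 of 6932 genes (2.99%), 80 higher (1.15%) and 127 lower (1.83%), while DESeq2 called 124, 68 higher and 56 lower. Without knockout 1 edgeR called 92 genes and without WT 1 it called 113. Beside the γ-chain genes, cytotoxic genes were among the higher ones: 6 of 10 tested type 1 genes rose and none fell. Nkg7 was at 1096, 724, 389 and 730 CPM in Trdc+ cells and at 40.9, 89.2, 23.6 and 38.3 CPM in CD4 T cells, 14.0-fold higher (log2 3.81 ± 0.23, adjusted p = 3.36e-11). Klrd1 (log2 2.79 ± 0.26), Il2rb (2.52 ± 0.22) and Eomes (4.29 ± 0.65) rose as well, as did Runx3 (1.74 ± 0.21), the factor that represses Cd4. Cd7, a surface protein of T and NK cells, was at 184, 402, 415 and 365 CPM against 53.7, 47.8, 28.3 and 41.2 CPM. Ly6c2 had a log2 difference of 4.36 ± 0.58 and an adjusted p of 0.0475, which was 0.228 without WT 2 and 0.095 without knockout 2.

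Genes of T cell help and regulation were among those lower than in CD4 T cells. Of 11 tested costimulation and checkpoint genes, 6 fell (Cd28, Cd5, Cd6, Ctla4, Icos and Tnfrsf4) and 2 rose (Cd160 and Pdcd1). Ctla4 was at 19.4, 16.1, 13.2 and 9.86 CPM in Trdc+ cells against 147, 174, 102 and 111 CPM in CD4 T cells (log2 -3.34 ± 0.36, adjusted p = 3.44e-07). Cd28 was at 233, 314, 158 and 404 CPM against 522, 564, 519 and 527 CPM. Areg had no UMI in any Trdc+ cell and was at least 4.27-fold lower than in CD4 T cells, with 3 UMIs over the summed Trdc+ cells as the floor; the call was lost without WT 1. Ccr7 (log2 -1.44 ± 0.18), Lef1 (-1.02) and Satb1 (-1.03) fell here too. The CD4 and CD8 comparisons share their Trdc+ sums, so they are not independent.

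Against NK cells 905 of 6428 genes (14.1%) were called, 483 higher (7.51%) and 422 lower (6.57%). Trdc+ cells were higher in T cell maintenance genes: of 11 tested genes of naive and recirculating cells 7 rose and none fell. Il7r was at 863, 965, 976 and 542 CPM in Trdc+ cells and at 16.1, 22.7, 11.0 and 22.4 CPM in NK cells, 50.9-fold higher (adjusted p = 2.48e-13). Bcl11b, a T lineage factor, differed by 5.32 ± 0.24 on the log2 scale, Tcf7 by 3.53 ± 0.19, S1pr1, the receptor for leaving tissue, by 3.72 ± 0.21, and Ltb, a lymphotoxin chain, by 3.27 ± 0.21. Tcrg-C2 had no UMI in NK cells and was at least 483-fold higher in Trdc+ cells, with 3 UMIs over the summed NK cells as the floor.

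Killer-cell genes separated the Trdc+ cells from NK cells. Of 17 tested NK receptor genes 13 fell, and of 15 type 1 genes 9 fell and none rose. Klra4 had no UMI in Trdc+ cells, against 1126, 1382, 996 and 964 CPM in NK cells, and was at least 180-fold lower; Klra8 was at least 78.4-fold lower. Prf1, which encodes perforin, was at 58.2, 64.3, 6.59 and 9.86 CPM in Trdc+ cells and at 1710, 1574, 1573 and 1487 CPM in NK cells (log2 -5.46 ± 0.43). Eomes (log2 -3.05 ± 0.30) and Tbx21 (-3.22 ± 0.32), the main type 1 factors, were lower, as was Nkg7, at 1096, 724, 389 and 730 CPM against 3966, 4215, 3634 and 3738 CPM (log2 -2.36 ± 0.22). The adjusted p of Nkg7 was 0.0792 without members over 11000 UMIs. Absence of Ncr1 in Trdc+ cells and its presence in NK cells were set by the gates.

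**Figure D4:**
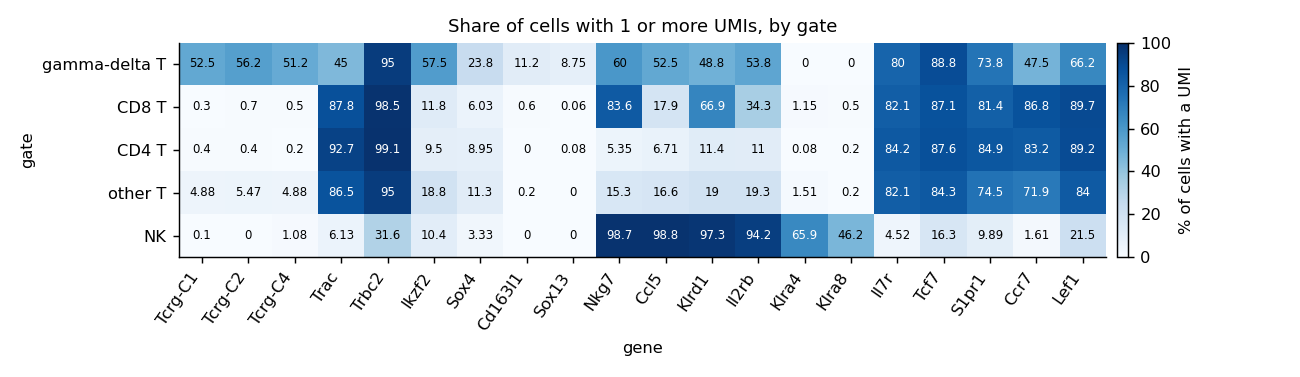
Share of cells with 1 or more UMIs of 20 genes in Trdc+ cells (top row, labelled gamma-delta T) and 4 other gates, as a colour from 0 to 100% with the value printed. Tcrg-C genes were detected in 51.2% to 56.2% of Trdc+ cells and in at most 5.47% of the cells of any other gate shown, and Klra4 and Klra8 in none of the Trdc+ cells.

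Lmna was checked first in the comparison of genotypes. Knockout Trdc+ cells held 0 and 0 Lmna UMIs, against 9 UMIs in 5 cells of WT 1 and 0 in WT 2. Of those 9 UMIs, 4 came from the WT 1 cell of 19643 UMIs that held 191 Lyz2 UMIs. The loss was thus not detectable in Trdc+ cells, where the 3-UMI floor was 29.1, 24.1, 19.8 and 29.6 CPM. Over all kept cells Lmna was at 14.3 and 15.3 CPM in the knockout libraries and 75.0 and 55.4 CPM in the WT libraries. The deleted exons are not given in the sources used here, and 3′ tags outside the deleted part would still be counted. Lmnb1, the gene of a related lamin, had 4 and 1 UMIs in knockout Trdc+ cells and 19 and 15 UMIs in WT Trdc+ cells, 13 of the last in 1 cell (log2 -2.57 ± 0.67, adjusted p = 0.205).

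Over all 80 Trdc+ cells edgeR's quasi-likelihood test called 0 of 1867 genes (0%) between knockout and WT, while 184 genes (9.86%) had an unadjusted p under 0.05 and DESeq2 called 10, all lower in knockout. Leaving out 1 library gave 15 to 126 calls, the fewest without knockout 2 and the most without WT 2. Both knockout libraries lay above both WT libraries for 393 genes (21%) and below them for 358 (19.2%). None of the gene lists had a called member. Of 9 tested cytokine receptor genes 9 had a positive log2 difference, with a median of 0.75, against a median of 0.00 over all genes tested. The 5 tested cell cycle genes had negative differences, with a median of -1.91. A gene could pass the filter on low counts through 1 genotype alone, so neither count of directions is a test. Of the cell cycle genes, Mki67 had 20 of its 20 UMIs in WT 1 and 34 of its 41 in WT 2 in a single cell. Cells with 5 or more of 20 cell cycle genes numbered 0 and 1 in the knockout libraries and 3 and 3 in the WT libraries. Of these, the WT 2 cells with 10 and 20 cell cycle genes held 1 and 3 UMIs of the thymocyte marker Arpp21. The knockout 2 cell held 1 Arpp21 UMI, and the remaining cells of this count held 0. The remaining member with Arpp21, in knockout 1, had 1 cell cycle gene.

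The genes with the smallest p in each direction were of different kinds. Ms4a4b, a membrane protein of T cells, was at 2511 and 2203 CPM in knockout Trdc+ cells, against 962 and 1322 CPM in WT Trdc+ cells (log2 1.04 ± 0.22, adjusted p = 0.101). It was at 1735 and 1621 CPM in knockout CD8 T cells and 1456 and 1443 CPM in WT CD8 T cells. H2-Q7, a nonclassical MHC class I gene, was at 873 and 1061 CPM against 415 and 365 CPM in Trdc+ cells (adjusted p = 0.114), with the same order in CD8 T cells, at 859 and 953 CPM against 566 and 591 CPM. Tnfrsf18, which encodes the costimulatory receptor GITR, was at 233 and 121 CPM against 26.4 and 49.3 CPM (adjusted p = 0.169).

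Among the lower genes, myeloid and proliferation transcripts came from few cells. Tyrobp, a signalling adaptor of myeloid and NK cells, had 2 and 0 UMIs in knockout Trdc+ cells and 86 and 26 UMIs in WT Trdc+ cells, 57 and 19 of them in a single cell of each WT library (adjusted p = 0.0749). Mki67, a proliferation gene, had 1 and 0 UMIs against 20 and 41 UMIs, 20 and 34 of them in a single cell (adjusted p = 0.0789). Rps29, a ribosomal protein gene, was spread over cells, at 2676 and 3667 CPM in knockout Trdc+ cells and 7989 and 6154 CPM in WT Trdc+ cells (log2 -1.17 ± 0.21, adjusted p = 0.0789). It lay in the same order in CD8 T cells, at 3462 and 4677 CPM in knockout and 11035 and 8448 CPM in WT libraries. Without members over 11000 UMIs edgeR called 2 genes, both lower in knockout.

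**Figure D5:**
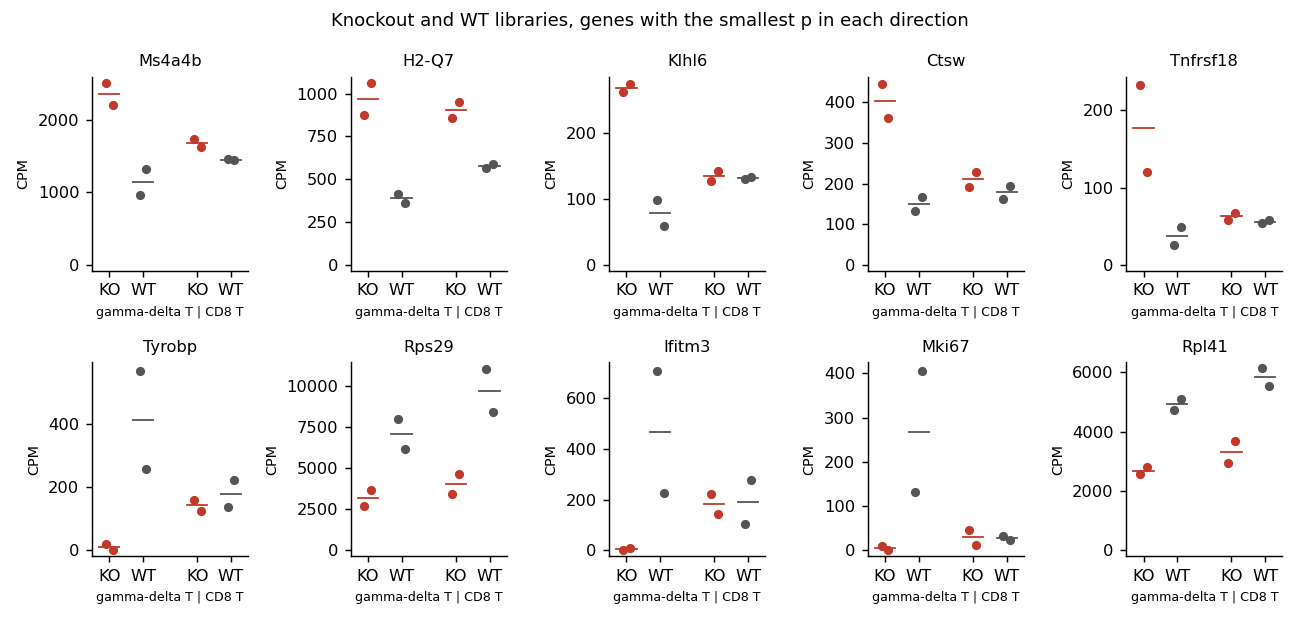
CPM of 10 genes in the summed cells of each library, 1 panel per gene, with knockout (KO) left of WT, first for Trdc+ cells (labelled gamma-delta T) and then for CD8 T cells; points are libraries and lines the mean of 2. Ms4a4b, H2-Q7 and Klhl6 were higher in both knockout Trdc+ sums than in both WT sums, and Rps29 and Rpl41 were lower in knockout than in WT in both cell classes.

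Restricted to the 57 cells with a γ-chain UMI, the test called 36 of 1524 genes (2.36%), 11 higher (0.722%) and 25 lower (1.64%) in knockout. These sums held 92792 and 89275 UMIs in the knockout libraries and 107711 and 80311 UMIs in the WT libraries. Ccl5 was at 6574 and 6217 CPM in knockout γ-chain cells, against 1532 and 2117 CPM in WT γ-chain cells (log2 1.79 ± 0.24). A single cell held 212 of the 610 Ccl5 UMIs in knockout 1 and 155 of the 555 in knockout 2. In WT 1 and WT 2 it was 61 of 165 and 63 of 170. In CD8 T cells Ccl5 was at 2512 and 1036 CPM in knockout and 620 and 1244 CPM in WT libraries. Bcl2, a survival gene, was at 830 and 818 CPM against 269 and 349 CPM (log2 1.40 ± 0.38, adjusted p = 0.015), and it was at 520 and 618 CPM in knockout and 520 and 556 CPM in WT CD8 T cells. Ms4a4b (log2 1.23 ± 0.29) and H2-Q7 (1.27) were the other higher genes that were also called with a Trdc minimum of 2 and with both conditions together. Over these member sets 18 genes were called in each, 4 higher and 14 lower.

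The count was lower among γ-chain cells of at most 11000 UMIs, which numbered 18 and 17 in the knockout libraries and 9 and 9 in the WT libraries. There 2 of 1176 genes (0.17%) were called, Rps28 and Rps29, both ribosomal protein genes that were lower in knockout. This order was not limited to Trdc+ cells. In CD8 T cells Rps28 was at 2020 and 2560 CPM in knockout and 6447 and 4656 CPM in WT libraries. Rps29 was at 3753 and 4907 CPM against 11924 and 8945 CPM in CD4 T cells. In NK cells it was at 1589 and 2169 CPM against 5204 and 4245 CPM. Of the 36 genes called over all γ-chain cells, 27 were tested in this set and 26 of those had the same direction. The log2 difference of Ccl5 was then 1.40 with an adjusted p of 0.282, and that of Ms4a4b was 0.84 with an adjusted p of 0.314. Over all 80 members Ccl5 differed by 1.28 (adjusted p = 0.544) and was not called either. The share of members on the type 1 side, where Ccl5 was detected in 41 of 48 cells, was 90.5% and 52.0% in the knockout libraries and 42.1% and 53.3% in the WT libraries, and its part in the Ccl5 difference was not tested.

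Whether the genotype difference itself was unlike that in CD8 T cells was tested as an interaction, which called 46 of 8977 genes (0.512%), 11 higher (0.123%) and 35 lower (0.39%) in Trdc+ cells. Ms4a4b had the smallest p among the higher genes, with a difference of differences of 0.93 ± 0.18 on the log2 scale (adjusted p = 0.000243). That call was lost without knockout 1 (adjusted p = 0.66) and without knockout 2 (0.164). Klhl6, a ubiquitin ligase adaptor of lymphocytes, followed the same order at 262 and 273 CPM in knockout Trdc+ cells and 98.9 and 59.2 CPM in WT Trdc+ cells, with 127 and 142 CPM in knockout and 131 and 134 CPM in WT CD8 T cells. Of 20 tested cell cycle genes, 4 were lower in this contrast (Hmgb2, Mcm2, Mki67 and Rrm2) and none higher. Single large WT cells held much of these UMIs: Mki67 had 20 of its 20 UMIs in 1 cell of WT 1 and 34 of its 41 in 1 cell of WT 2, and without members over 11000 UMIs its adjusted p was 0.91. Hmgb2 differed between genotypes by -1.91 on the log2 scale over all 80 members and by -0.41 without members over 11000 UMIs. DESeq2 called 0 genes in this contrast, and edgeR called 8 without knockout 1, 12 without knockout 2, 89 without WT 1 and 115 without WT 2.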

How the data were processed

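The authors deposited, for each library, a matrix of unnormalized UMI counts with genes against barcodes. Per the submitters' processing notes the authors used Cell Ranger 3.0.2, Seurat 3.0.0 and the mm10 genome. Cells were kept at 200 or more genes and at most 10% mitochondrial UMIs, and members and comparison gates (CD8, CD4, NK and B cells) were set by marker UMIs. UMIs were summed per library and gate and tested with edgeR 4.0.16 (quasi-likelihood, robust, TMM, filterByExpr; R 4.3.3), with Benjamini-Hochberg adjustment over all genes tested, a threshold of 0.05, and library as a block between gates. DESeq2 1.42.0 was an alternative. Depth per library was 21780914 to 27045250 UMIs. The labels name 2 mice per genotype without tying each library to one, so p-values measure the spread between libraries. Doublets were scored by simulated neighbours, which marked 461 barcodes.

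Named genes were those of the receptor, type 17 and type 1 lists, the 10 highest and 10 lowest fold changes past the threshold at 100 CPM or more with 1 sign in all libraries, the 4 smallest p of each other list, and the 5 smallest p in each direction between genotypes; genes named outside this rule, such as those of the γ-chain cells, were chosen after their values were seen. The members and lists were chosen with earlier results of these data known. The type 17 against type 1 test was not run, for want of 5 cells per side and library. Replicate numbers did not pair the libraries. Some genes are not reported here.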

Additional observations from a re-analysis of the deposited data

Results flagged for a closer look

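The genotype difference in Trdc+ cells differed from that in CD8 T cells, by edgeR's interaction test, for 10 named genes; each value is the knockout minus WT log2 difference in Trdc+ cells less that in CD8 T cells. On the higher side Ms4a4b had 0.93, Malat1 0.391, Rpl37a 0.546, Vps37b 1.01 and Klhl6 1.77, with adjusted p-values of 0.000243, 0.00158, 0.0084, 0.0112 and 0.0139. Without members over 11000 UMIs these values were 0.64, 0.09, 0.43, 0.69 and 1.71, and none of the 5 passed the threshold. On the lower side Tyrobp had -5.17, Lgals3 -11.1, Cxcl2 -5.04, Retnlg -11.8 and Mki67 -5.67. Lgals3 and Retnlg had no UMI in knockout Trdc+ cells, so their fitted values depend on the prior count and are no bound. Retnlg had 27 UMIs in WT Trdc+ cells, all in WT 1 and 21 in a single cell, and Cxcl2 had 50 UMIs in WT 1, 31 of them in a single cell, against 1 UMI in each other library. The interaction value of Cxcl2 was -1.66 without WT 1, with an adjusted p of 0.898, and that of Tyrobp had an adjusted p of 0.993 without cells scored as doublets.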

How the results depend on the processing

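Between genotypes the 80 Trdc+ cells gave 0 calls, and this count depended on the settings: DESeq2 called 10 genes, no filter on low counts 93 (9 higher, 84 lower), a Trdc minimum of 2 called 26 (9 and 17), γ-chain cells 36 (11 and 25), both conditions 28 (6 and 22), cells thinned to 2500 UMIs 17, members without Ptcra, Rag2 or Arpp21 10, members of at most 11000 UMIs 2, γ-chain cells of at most 11000 UMIs 2, and leaving out 1 library, where a lone library is taken to vary like the other group, 15 to 126. RLE size factors, leaving out doublets and a mitochondrial maximum of 5% also gave 0. Replicate numbers did not pair the libraries (correlation of deviations -0.03 over 3682 genes); the fit with a replicate block called 6 genes. A mitochondrial maximum of 5% left 3 and 8 knockout and 3 and 6 WT members and gave 6 calls against CD8 T cells in place of 202, 11 against CD4 T cells in place of 207 and 192 against NK cells in place of 905; under it Ccl5 against CD8 T cells turned to -0.208 (adjusted p = 1) and Igtp against NK cells to -0.223 (adjusted p = 0.982). Without a filter 304 and 362 genes were called against CD8 and CD4 T cells. Against CD4 T cells DESeq2 called 124 (68 higher, 56 lower, against 80 and 127), and leaving out 1 library gave 92 (without knockout 1) to 219, with 113 without WT 1. The CD8 comparison gave 168 to 178 and the NK comparison 609 to 936 calls without 1 library. The interaction gave 46 calls, 0 with DESeq2, 8 at 5% mitochondrial UMIs, 12 at up to 11000 UMIs, 20 without doublets, 20 with Trdc of 2 and a γ-chain UMI, 18 with Trdc of 2, 10 after thinning, and 8, 12, 89 and 115 without knockout 1, knockout 2, WT 1 and WT 2. The type 17 side difference of -2.78 points was 0.689 after thinning and -15.9 to 10.4 without 1 library; a block fit was not run for it. The share of Trdc+ cells kept its direction in all settings run, with log2 differences of 0.356 to 0.689 without 1 library. Of the named genes 39 of 40 (CD8), 42 of 42 (CD4) and 66 of 67 (NK) kept their direction in every setting run. The causes were not tested.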
